A study of Mus musculus with 5 samples.

Results

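The 6 genes described here code for the machinery of glutamate uptake and recycling, and they were taken by gene symbol from the 33696 genes counted: *Slc1a3*, *Slc1a2*, *Glul*, *Slc38a3*, *Glud1* and *Slc7a11*. They were measured by single-cell RNA sequencing in tdTomato+ cells sorted from adult mouse retina, in a study that followed Müller glia (MG) and their progeny after a transient pulse of YAP activity. All mice carried *Glast-CreERT2* and the *Rosa26-Ai65* reporter on a C57BL/6J background, were 12 to 20 weeks old, and were pooled from both sexes. Tamoxifen activated the Cre, and each mouse received an ShH10 AAV with a *Gfap* promoter in front of either *mKate2*, a red fluorescent protein used as control, or *Yap5SA*, a constitutively active form of YAP. Cells were sorted 56 days after injection from 16 pooled retinas (*mKate2* AAV, 2 libraries) and 21 pooled retinas (*Yap5SA* AAV, 3 libraries). The AAV also carries the FlpO recombinase that the reporter needs besides Cre, so labelling depends on both recombinases in a cell or its ancestor. Glast is the protein product of *Slc1a3*, so 1 of the 6 genes names the driver of the Cre. Whether the driver alters the endogenous *Slc1a3* allele is not given in the sources used here. Whether libraries of 1 group came from separate animals is not stated either, so p-values measure the spread between these libraries.

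Photoreceptors and bipolar cells release glutamate as their transmitter, and Müller glia clear much of it. Uptake runs through sodium-coupled transporters, glutamine synthetase then joins ammonia to glutamate to make glutamine, and glutamine leaves the glial cell to be turned back into glutamate in neurons. A part of the glutamate instead enters the mitochondrial citric acid cycle or is exchanged for cystine, from which glutathione is made.

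Cells with at least 1000 unique molecular identifiers (UMIs) and at most 15% mitochondrial UMIs were kept, 10749 of 15293 barcodes in 4 libraries. *Yap5SA* AAV replicate 2 shared 1361 barcodes (99.8% of its own) with replicate 1, and the summed counts of both differed by less than the sampling noise, so replicate 2 was left out and these libraries count as 1. MG were cells in which *Rlbp1*, *Clu* and *Aqp4* together made up at least 0.25% of UMIs, 6304 cells in all. *mKate2* AAV replicates 1 and 2 held 1388 and 2922 of them, and *Yap5SA* AAV replicates 1 and 3 held 760 and 1234. In the MG of each library, 8 other MG markers (such as *Sox9*, *Kcnj10* and *Dkk3*) held 0.547% to 0.773% of UMIs. Any other class of 20 or more cells held at most 0.112%, so the MG sums stood apart from the sums of those classes. Single cells were not checked this way, and pigment epithelium was not among the classes. Genes of that tissue held 0.708% of the UMIs of MG in *Yap5SA* AAV replicate 3, as given below. Between 32 and 83 cells a library lay within 0.05 percentage points below the limit of 0.25% and 40 to 97 within the same distance above it. Between 0.263% and 8.83% of the MG of a library also passed the marker limit of another class, and no doublets were removed.

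Other classes were named from marker genes alone, and none of the 6 genes is on a marker list. Microglia and macrophages numbered 24 and 898 cells with *mKate2* AAV and 135 and 63 cells with *Yap5SA* AAV. The rods (606 and 622 cells), bipolar cells (369 and 60) and amacrine cells (181 and 44) came from *mKate2* AAV replicate 2 and *Yap5SA* AAV replicate 3, and 29 cones came from *mKate2* AAV replicate 2. Neurons can therefore be described in those libraries alone, and sums of fewer than 20 cells were not used. Levels are given as CPM, the UMIs of a gene summed over the cells of a class in 1 library and scaled to a total of 1000000 UMIs over all genes. Levels are compared between cells for the same gene, never between genes.

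*Slc1a3* codes for GLAST (EAAT1), the main glutamate transporter of Müller glia. It (ENSMUSG00000005360) lies on chromosome 15 (8663604 to 8741595, minus strand, GRCm39 with the GENCODE vM39 annotation, as are all positions below). MG held 1515 and 978 CPM in the *mKate2* AAV libraries and 1311 and 1204 CPM in the *Yap5SA* AAV libraries, a mean of 1252 ± 224 (SD, n = 4). Every other class was far below, and the lowest MG library had more than any library of another class. Amacrine cells came next with 92.4 and 57.3 CPM, above microglia and macrophages at 18.9 to 35.0 CPM over 4 libraries. Rods had 8.19 and 18.7 CPM, bipolar cells 5.06 and 3.23 CPM, and cones 1.98 CPM from 1 UMI.

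*Glul* codes for glutamine synthetase, which makes glutamine from glutamate and ammonia and is a classic marker of Müller glia (ENSMUSG00000026473, chromosome 1, 153775690 to 153785469, plus strand, overlapped by *Teddm2* on the other strand). Its level in MG was 5036 and 5482 CPM with *mKate2* AAV and 3494 and 7441 CPM with *Yap5SA* AAV, a mean of 5363 ± 1626 (SD, n = 4). Both the lowest and the highest MG library were of the *Yap5SA* AAV group, and both were far above all other classes. Microglia and macrophages held 138 to 276 CPM over 4 libraries, rods 117 and 223, bipolar cells 124 and 98.6, amacrine cells 126 and 53.6, and cones 51.6. Classes next to each other in that order overlapped, apart from the cones with their single sum.

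*Slc1a2* codes for GLT-1 (EAAT2), a glutamate transporter of brain astrocytes that in retina is known from cones and bipolar cells (ENSMUSG00000005089, chromosome 2, 102488574 to 102621129, plus strand, overlapped by *Gm13872* on the other strand). It was not highest in MG, where it stood at 326 and 554 CPM with *mKate2* AAV and at 362 and 499 CPM with *Yap5SA* AAV (mean 435 ± 109, SD, n = 4). Cones held the most, 1621 CPM (exact 95% Poisson interval 1512 to 1736, counting error only). Bipolar cells had 567 and 566 CPM and rods 518 and 463 CPM, the rods within the range of MG and the bipolar cells just above it. Amacrine cells (27.6 and 17.4 CPM) and microglia and macrophages (0 to 11.7 CPM) formed a lower tier. *Slc1a2* thus split the neurons, with photoreceptors and bipolar cells on the high side and amacrine cells on the low side.

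*Slc38a3* codes for SNAT3, a transporter that moves glutamine across the glial membrane and can release it (ENSMUSG00000010064, chromosome 9, 107527815 to 107547018, minus strand). MG held 226 and 159 CPM with *mKate2* AAV and 188 and 187 CPM with *Yap5SA* AAV, a mean of 189.9 ± 27.4 (SD, n = 4). Rods (116 and 141 CPM), bipolar cells (113 and 139 CPM) and cones (155 CPM) were all below the lowest MG library, although by small margins. Amacrine cells had 8.57 and 4.98 CPM. In microglia and macrophages 12 UMIs were counted in all, 10 of them in *mKate2* AAV replicate 2, and 2 libraries had none, which allows up to 8.10 and 5.95 CPM (3 counts). The same classes were high and low as for *Slc1a2*, apart from the place of the cones.

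*Glud1* codes for the mitochondrial glutamate dehydrogenase, which feeds the carbon of glutamate into the citric acid cycle (ENSMUSG00000021794, chromosome 14, 34032583 to 34067642, plus strand, overlapped by *Shld2* on the other strand). It was the most even of the 6 genes over the classes. MG held 195 and 245 CPM with *mKate2* AAV and 149.7 and 267 CPM with *Yap5SA* AAV (mean 214 ± 52.3, SD, n = 4). Microglia and macrophages lay within the same range (154 to 202 CPM), and rods (113 and 80.0), cones (109), bipolar cells (97.6 and 62.2) and amacrine cells (117 and 84.7) lay below it.

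*Slc7a11* codes for xCT, which exports glutamate in exchange for cystine (ENSMUSG00000027737, chromosome 3, 49846975 to 50398070, minus strand, overlapped by *Gm37854* on the other strand). It was scarce. MG held 14.1 and 17.8 CPM with *mKate2* AAV and 19.3 and 16.4 CPM with *Yap5SA* AAV (mean 16.9 ± 2.21, SD, n = 4), from 122 to 337 UMIs a library. Microglia and macrophages held 45.9, 32.9, 48.3 and 19.8 CPM in the same order of libraries, each above the highest MG value, the last narrowly. A UMI of it was found in 5 of 24, 30 of 898, 28 of 135 and 5 of 63 of these cells. The first and last values thus rest on few cells. Amacrine cells had 1.91 and 6.23 CPM, bipolar cells and rods at most 2.42 CPM, and the cones had none, which allows up to 5.95 CPM.

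**Figure D1:**
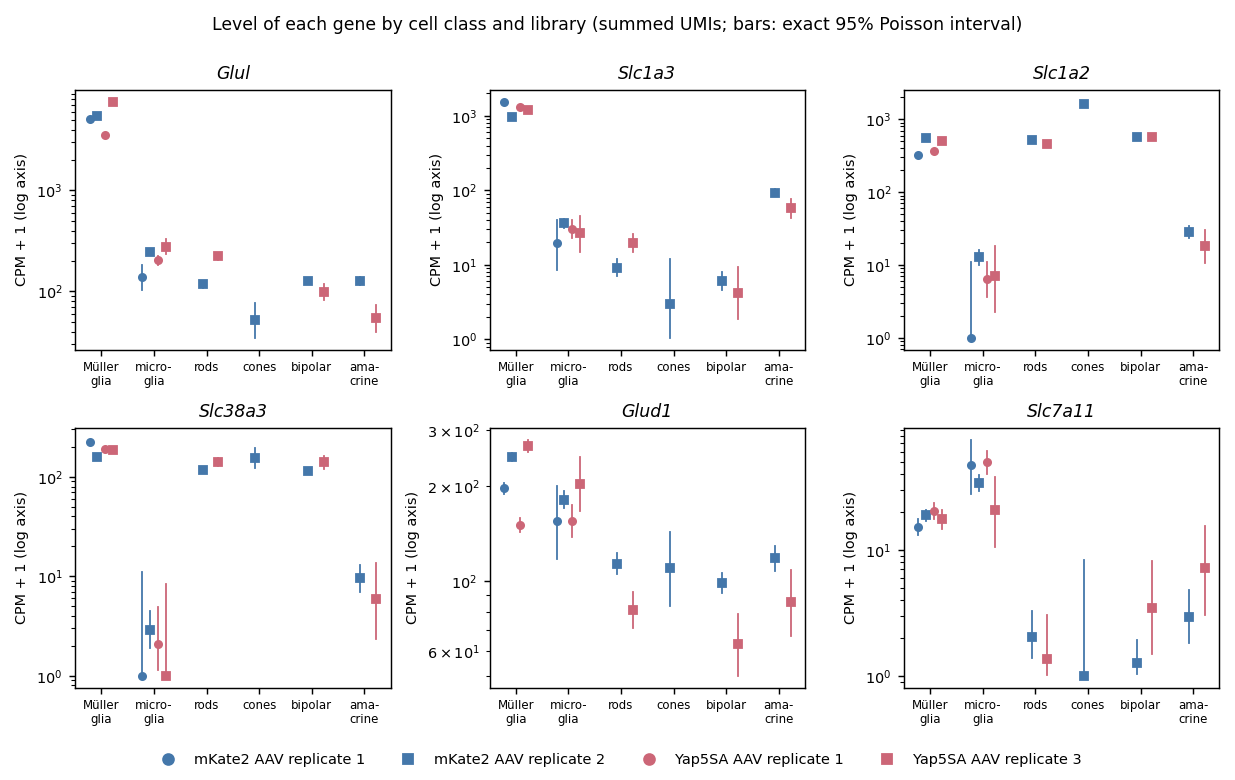
Level of each gene by cell class (horizontal) in CPM + 1 on a log axis, 1 point a library with at least 20 cells of the class and its exact 95% Poisson interval, in blue for *mKate2* AAV and red for *Yap5SA* AAV. *Glul* and *Slc1a3* are highest in MG, *Slc1a2* is highest in cones at 1621 CPM, *Slc38a3* lies within a narrow range in MG, rods, cones and bipolar cells, and *Slc7a11* is highest in microglia and macrophages.

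The share of MG with at least 1 UMI of a gene was counted after each cell had been thinned at random to 1000 UMIs. A *Glul* UMI was found in 95.6% and 92.0% of MG with *mKate2* AAV and in 85.7% and 96.7% with *Yap5SA* AAV. Unthinned, the shares were 96.5% to 99.4%, at median depths of 2947 to 11525 UMIs. Rods, neurons that should lack both genes, had a *Glul* UMI in 10.6% and 16.9% of thinned cells and an *Slc1a3* UMI in 1.16% and 2.73% (median depths 8616 and 3458 UMIs). The share with *Glul* was 19.0% to 29.2% in thinned microglia and macrophages of the 4 libraries.

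*Slc1a3* UMIs were found in 63.9% and 40.2% of thinned MG with *mKate2* AAV and in 62.5% and 46.6% with *Yap5SA* AAV. The libraries with high and low shares were in both groups. *Slc1a2* was seen in 23.3% to 28.1% of thinned MG and in 35.3% and 36.0% of thinned rods, against 1.34% of the microglia and macrophages of *mKate2* AAV replicate 2 (median depth 3940.5 UMIs). *Slc38a3* was seen in 8.66% to 16.7% of thinned MG and 12.2% and 12.5% of thinned rods, against 0.334% there. In the MG of the libraries these rods came from, the shares were 28.1% and 23.6% for *Slc1a2* and 8.66% and 11.9% for *Slc38a3*. For both genes these shares were below those of the rods, whereas the CPM of summed counts was higher in MG. *Slc7a11* was seen in 0.865%, 0.753%, 1.84% and 0.810% of thinned MG, while 0 of 606 rods of *mKate2* AAV replicate 2 had it, which allows a share of up to 0.495%. Thinned microglia and macrophages had it in 0%, 0.668%, 2.96% and 0% of cells in the same order of libraries, above MG in 1 library of 4. The zeros came from 24 and 63 cells and allow up to 12.5% and 4.76%, so these shares give no order between the classes, unlike the CPM of summed counts. The largest difference between groups in these shares was for *Glul*, −2.61 percentage points (*Yap5SA* minus *mKate2* AAV; two-sided exact permutation p = 1, n = 2 and 2). With 2 libraries against 2 that test cannot give a p below 0.333.

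The contrast between MG and microglia and macrophages was tested in all 4 libraries with edgeR's quasi-likelihood test on summed counts, with library as a block. *Slc38a3* differed most (log2 fold change 6.58, standard error 0.45, adjusted p = 1.35e-06), a value that rests on the 12 UMIs counted in microglia and macrophages. *Slc1a2* was 49.7-fold higher in MG (log2 fold change 5.63, standard error 0.41, adjusted p = 1.61e-06). *Slc1a3* was 31.8-fold higher (4.99 ± 0.35, adjusted p = 1.52e-06) and *Glul* 17.8-fold higher (4.15 ± 0.35, adjusted p = 3.83e-06), with the standard error after the sign.

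*Slc7a11* went the other way, 2.90-fold lower in MG (log2 fold change −1.54, standard error 0.30, adjusted p = 0.0014), lower in 4 of 4 libraries. When every cell counted alike (the mean over cells of each cell's own CPM), the levels were closer, at 13.4 CPM in MG and 17.8 CPM in microglia and macrophages as means of 4 libraries, against 16.9 and 36.7 CPM from summed counts. Counted this way, and given as UMIs per 10000, MG were below microglia and macrophages in replicate 1 of both groups (0.0953 against 0.231 with *mKate2* AAV, 0.180 against 0.315 with *Yap5SA* AAV). They were above them in *mKate2* AAV replicate 2 (0.106 against 0.0894) and *Yap5SA* AAV replicate 3 (0.152 against 0.0755), so in 2 of 4 libraries the direction differed between summed counts and means over cells. *Glud1* was not called (log2 fold change −0.19, standard error 0.24, adjusted p = 0.53). Of the 6 genes 4 were higher and 1 lower in MG, where 51.6% of the 14235 genes tested passed in either direction and 29.7% passed as higher in MG. The median log2 fold change over all genes was 0.26, and 0.40 with RLE size factors in place of TMM.

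Against rods, tested in the 2 libraries that had them, MG held 92.9-fold more *Slc1a3* (log2 fold change 6.54, standard error 0.44, adjusted p = 2.69e-05) and 42.1-fold more *Glul* (5.39, standard error 0.58, adjusted p = 0.000221). *Slc7a11* was 23.6-fold higher, although only 7 UMIs were counted in rods, and *Glud1* 2.85-fold higher (log2 fold change 1.51, standard error 0.22, adjusted p = 0.00103). These 4 genes were higher in MG in both libraries.

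*Slc1a2* did not differ beyond the spread between libraries (log2 fold change 0.19, standard error 0.27, adjusted p = 0.57): the MG held 554 and 499 CPM beside 518 and 463 CPM in the rods of the same libraries. *Slc38a3* had 159 and 187 CPM in MG and 116 and 141 CPM in rods, and was not called (log2 fold change 0.52, standard error 0.21, adjusted p = 0.064). It passed the threshold in cells with at least 3000 UMIs (0.66, adjusted p = 0.034) and with no filter on low counts (0.61, adjusted p = 0.032). In all, 57.5% of the 14479 genes tested passed in this contrast and 32.3% passed as higher in MG. The MG of these libraries held 0.123% and 0.185% of their UMIs in 10 rod marker genes, against 0.0116% and 0.000777% in those of the other 2. Without the MG that also passed the limit of a second class, all 6 genes stayed on the same side of the threshold (*Slc1a2* at 0.20, *Slc38a3* at 0.55).

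**Figure D2:**
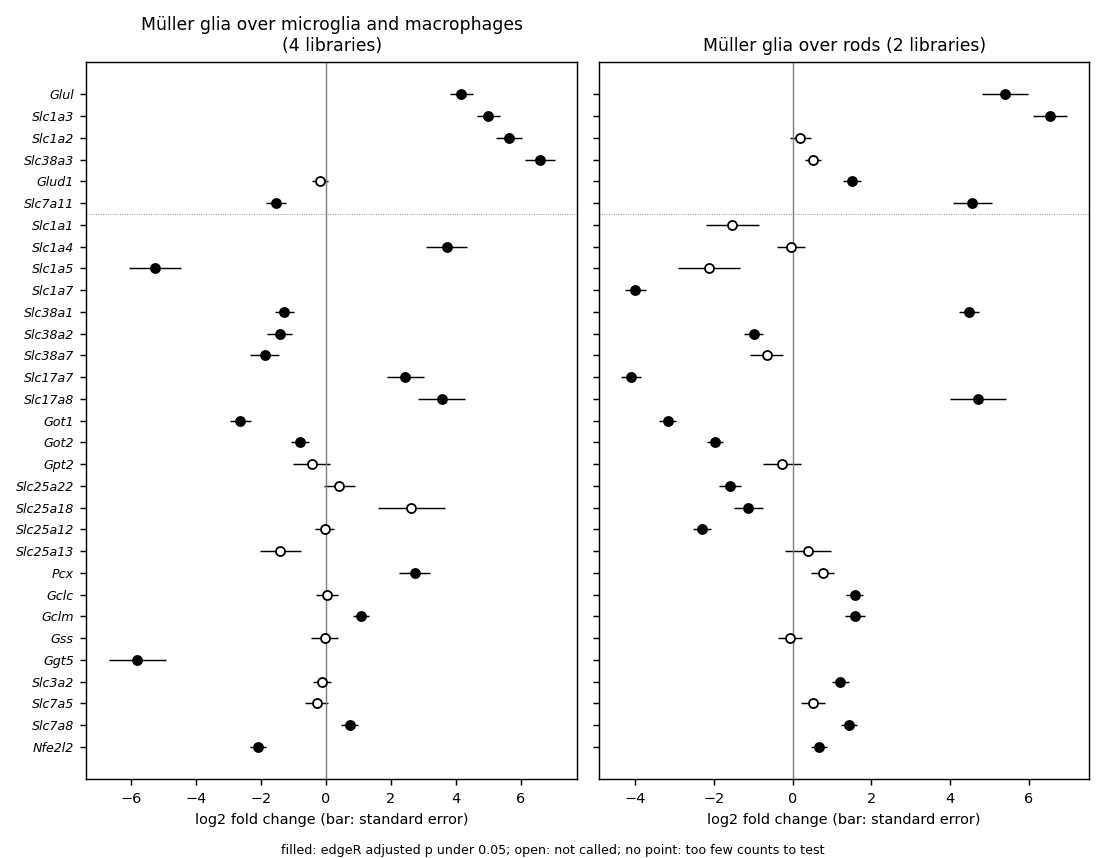
Log2 fold change of MG over microglia and macrophages (left, 4 libraries) and over rods (right, 2 libraries) for the 6 genes (above the dotted line) and for other glutamate and glutathione genes that could be tested, with standard errors and filled points for an edgeR adjusted p under 0.05. *Slc1a2* and *Slc38a3* stand at 5.63 and 6.58 over microglia and macrophages and at 0.19 and 0.52 over rods.

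The question of the study design is whether MG and their progeny differ after *Yap5SA* AAV. None of the 6 genes passed between *Yap5SA* and *mKate2* AAV in MG, in a comparison in which 0.0% of 15256 genes passed by edgeR and 0 by DESeq2, with 38 and 62 genes at an unadjusted p under 0.05. *Glul* was at 5259 ± 315 CPM with *mKate2* AAV and 5467 ± 2791 CPM with *Yap5SA* AAV (SD, n = 2 each), and its log2 fold change was −0.04 (standard error 0.60). *Slc1a3* stood at 1247 ± 380.1 and 1257 ± 75.5 CPM (log2 fold change −0.07, standard error 0.36).

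For *Slc1a2* the group levels were 440.1 ± 162 and 430.4 ± 97.4 CPM (log2 fold change −0.16, standard error 0.45). For *Slc38a3* they were 192 ± 47.1 and 187 ± 0.586 CPM (−0.12, standard error 0.25). *Glud1* stood at 220.2 ± 35.2 and 208 ± 82.6 CPM (−0.19, standard error 0.41) and *Slc7a11* at 16.0 ± 2.62 and 17.9 ± 2.06 CPM (0.04, standard error 0.34). The groups overlapped for all 6 genes, and every adjusted p from edgeR rounded to 1.

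Other measures of the MG differed between libraries as well. A list of 5 pigment epithelium genes held 0.0389% and 0.123% of the summed UMIs of MG with *mKate2* AAV and 0.0745% and 0.708% with *Yap5SA* AAV. All 5 genes were above 0 in every library. Over single MG, the median share of these pigment epithelium genes was 0.0294% and 0.0227% with *mKate2* AAV and 0.0284% and 0.0300% with *Yap5SA* AAV. The higher sums therefore came from a part of the cells. *Rpe65*, the visual cycle isomerase of that tissue, had 1 and 533 UMIs with *mKate2* AAV and 56 and 2713 with *Yap5SA* AAV. The part of this RNA in the levels above was not tested.

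The 2 libraries of each group were processed with different versions of Cell Ranger by their file headers, 8.0.0 for replicate 1 of both groups and 9.0.1 for *mKate2* AAV replicate 2 and *Yap5SA* AAV replicate 3. Within version 8.0.0, *Yap5SA* over *mKate2* AAV had a log2 ratio of CPM of −0.53 for *Glul*, −0.21 for *Slc1a3*, −0.26 for *Slc38a3* and −0.38 for *Glud1*. Within version 9.0.1 the same genes had 0.44, 0.30, 0.23 and 0.12. *Slc1a2* (0.15 and −0.15) and *Slc7a11* (0.45 and −0.12) reversed the other way, so each of the 6 genes changed sign from one pair of libraries to the other. With the version as a term of the model 0 genes passed (156 at an unadjusted p under 0.05).

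**Figure D3:**
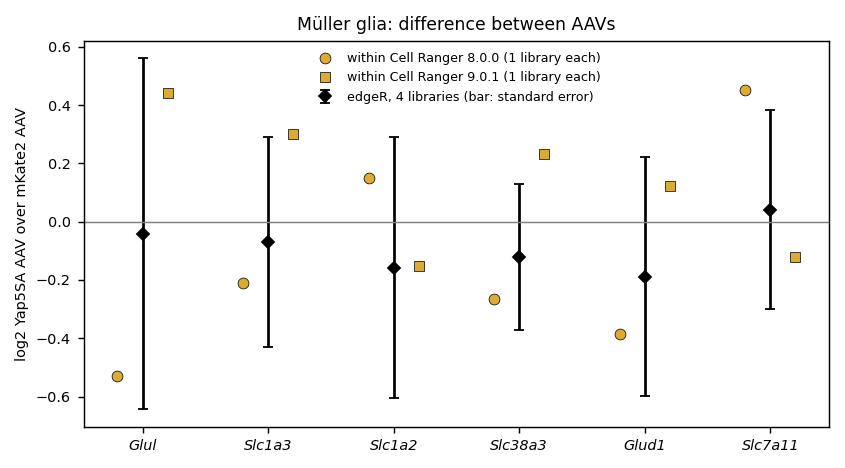
Log2 ratio of *Yap5SA* over *mKate2* AAV in MG for the 6 genes, as the edgeR estimate over 4 libraries with its standard error (black) and as the ratio of CPM within each Cell Ranger version (yellow, 1 library a group). The 2 yellow points of every gene lie on opposite sides of 0, from −0.53 to 0.44 for *Glul*.

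Whether the contrast of MG with microglia and macrophages itself differed between the AAVs was tested as an interaction. It passed for 0 of 14235 genes by edgeR (277 at an unadjusted p under 0.05) and 0 by DESeq2 (107). Among the 6 genes the interaction was largest for *Slc38a3* (log2 value 1.17, standard error 1.13), and the other 5 lay between −0.40 for *Glul* and 0.36 for *Slc7a11*.

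MG of all libraries spanned a wide range of ribosomal protein RNA, and the 6 genes differed in how they moved along it. This split of cells was chosen after its values had been seen, and it is a range of a per-cell share, not a cell type. The study described its larger cluster, with fewer UMIs and a raised ribosomal share, as bearing signs of dissociation stress. It left that cluster out of its later analyses. Such cells were not removed here, and whether the bands match that cluster was not tested. *Slc1a3* fell from 1726, 1461, 1499 and 1833 CPM in MG with under 2% ribosomal protein UMIs to 319, 435, 344 and 607 CPM in MG with 10% or more (*mKate2* AAV replicates 1 and 2, *Yap5SA* AAV replicates 1 and 3). *Slc38a3* went from 292, 281, 293 and 265 CPM to 28.4, 56.0, 39.0 and 91.1 CPM in the same order. *Slc1a2* went from 407, 850, 489 and 730 CPM to 144, 329.8, 97.5 and 252 CPM. For each of these 3 genes every library was lower in the highest band, in either AAV group.

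*Glul* was higher in the highest band in 3 libraries and lower in *Yap5SA* AAV replicate 3, with 4452, 5523, 2684 and 7068 CPM in the lowest band and 5174, 5694, 3452 and 6782 CPM in the highest. *Glud1* went from 177, 246, 128 and 277 CPM to 155, 173, 124 and 227 CPM. *Slc7a11* was at 0 of 458269 UMIs in the highest band of *mKate2* AAV replicate 1, which allows up to 6.55 CPM, and was no lower there than in the lowest band in *Yap5SA* AAV replicate 1 (24.8 against 24.2 CPM).

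Tested between MG with at least 10% and under 5% ribosomal protein UMIs, with library as a block, *Slc38a3* was 3.34-fold lower at high ribosomal share (log2 fold change −1.74, standard error 0.29, adjusted p = 0.000547, edgeR). *Slc1a3* was 2.63-fold lower (−1.39, standard error 0.26, adjusted p = 0.00126) and *Slc1a2* 2.01-fold lower (−1.0, standard error 0.25, adjusted p = 0.00632). *Glul* was not called by edgeR (0.52, standard error 0.26, adjusted p = 0.12) and was by DESeq2 (0.53, adjusted p = 0.00414). On plain CPM its log2 ratios were 0.06, 0.19, −0.04 and 0.03 in the 4 libraries, where the median over all genes was −0.65, −0.67, −0.56 and −0.53.

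Neither *Glud1* (0.06, adjusted p = 0.83) nor *Slc7a11* (−0.78, adjusted p = 0.19) passed, although *Slc7a11* did without *Yap5SA* AAV replicate 1 (−1.33, adjusted p = 0.030). On plain CPM *Glud1* was lower at high ribosomal share in 4 of 4 libraries (log2 ratios −0.35, −0.67, −0.40 and −0.19), so its direction turned with the scaling. Of the 13137 genes tested 47.6% passed, 26.2% as lower at high ribosomal share, and the median over all genes was −0.21. In cells of 2000 to 8000 UMIs *Slc1a2* kept its size but was no longer called (−1.06, adjusted p = 0.084), among 6202 genes tested.

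Several other measures moved with the ribosomal share. The median depth was 4867, 21582, 6881 and 23994 UMIs in the lowest band and 1862, 2527, 3259.5 and 2020.0 UMIs in the highest. *Malat1*, a long noncoding RNA kept in the nucleus, went from 105483, 62229, 128256 and 74094 CPM to 5682, 1110.0, 16014 and 562 CPM. The median mitochondrial share was higher in the highest band in 3 of 4 libraries, and 2.54% against 3.10% in *Yap5SA* AAV replicate 1.

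Genes with a long genomic span were lower as well: the median log2 fold change at high ribosomal share was 0.42 for 5259 genes spanning under 20 kb, −0.22 for 4330 genes of 20 to 60 kb and −1.0 for 3504 longer genes. *Slc1a3* spans 78.0 kb and *Slc1a2* 133 kb, in the longest class, as does *Slc7a11* with 551 kb. *Slc38a3*, at 19.2 kb, was lower at −1.74 against the 0.42 of its class, and *Glul*, at 9.78 kb, stood at 0.52. The share of MG in the highest band was 14.5% and 53.1% with *mKate2* AAV and 15.5% and 33.0% with *Yap5SA* AAV, higher in the libraries of version 9.0.1 in both groups. The part of depth, nuclear RNA, gene span or processing in these differences was not tested beyond the depth range given.

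**Figure D4:**
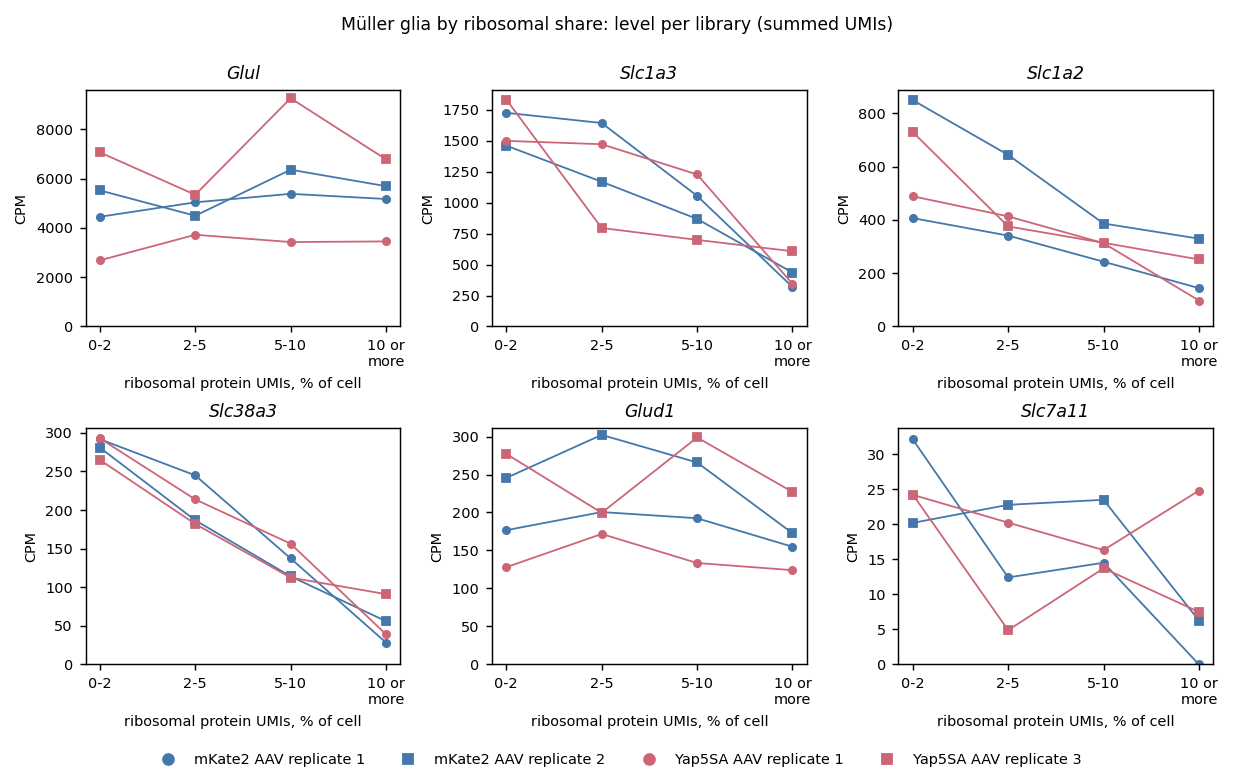
Level of each gene in MG (CPM, linear axes from 0) by the share of a cell's UMIs from ribosomal protein genes, 1 line a library, blue for *mKate2* AAV and red for *Yap5SA* AAV. *Slc1a3*, *Slc1a2* and *Slc38a3* are lower in the highest band than in the lowest in all 4 libraries, while *Glul* is higher there in 3 libraries and lower in 1.

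The other genes of the pathway were described from a list of 30 transporters and enzymes of glutamate, glutamine and glutathione. Of these 24 could be tested between the AAVs, and 0 passed (0 at an unadjusted p under 0.05), with log2 fold changes from −1.13 to 1.90 and a median of −0.04 beside −0.03 over all genes. Of those with at least 100 CPM in MG, *Slc3a2*, the heavy chain that pairs with xCT and other amino acid transporters, had 287 and 249 CPM with *mKate2* AAV and 231 and 215 CPM with *Yap5SA* AAV (log2 fold change −0.36, standard error 0.24). *Slc38a2*, a neutral amino acid transporter that carries glutamine, had 76.1 and 105 CPM against 132 and 119.8 CPM (0.35, standard error 0.31). Neither gene was near the threshold.

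*Slc38a1*, another glutamine transporter, was at 120.4 ± 11.4 and 102 ± 14.1 CPM in the AAV groups. *Slc7a8*, which also pairs with *Slc3a2*, was at 168 ± 0.654 and 177 ± 63.6 CPM. *Gclm*, the modifier subunit of the first enzyme of glutathione synthesis, was at 125 ± 0.891 and 125 ± 30.1 CPM, and *Nfe2l2*, which codes for the antioxidant transcription factor NRF2, at 116 ± 31.8 and 119 ± 28.6 CPM (SD, n = 2 each).

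Between MG and microglia and macrophages, 6 of 24 list genes tested were higher in MG and 9 lower, with a median log2 fold change of −0.21 beside 0.26 over all genes. Of all 14235 genes tested, 29.7% passed as higher in MG and 21.8% as lower. The largest rises were for *Slc1a4*, a neutral amino acid transporter (log2 fold change 3.71), *Slc17a8*, the vesicular glutamate transporter VGLUT3 (3.55), and *Pcx*, pyruvate carboxylase (2.73), which replenishes citric acid cycle carbon. The largest falls were for *Ggt5*, a gamma-glutamyltransferase (−5.81), *Slc1a5*, the neutral amino acid transporter ASCT2 (−5.26), and *Got1*, the cytosolic aspartate aminotransferase (−2.64). *Ggt5* and *Slc1a5* stood at 0.179 and 0.860 CPM in MG, so their folds rest on few UMIs. *Slc1a4* and *Slc17a8* stood at 0.412 and 0.853 CPM in microglia and macrophages, so the same holds for their folds. *Nfe2l2* was lower in MG as well (−2.09, adjusted p = 4.40e-05), and *Gclm* (1.06) and *Slc7a8* (0.73) were higher, while *Slc38a1* (−1.29) and *Slc38a2* (−1.43) were lower and *Slc3a2* was not called (−0.12).

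Between MG and rods, 7 of 25 list genes tested were higher in MG and 9 lower (median log2 fold change −0.28, beside 0.08 over all genes). Of all 14479 genes tested, 32.3% passed as higher in MG and 25.2% as lower. *Slc17a8* (4.70), *Slc38a1* (4.49) and *Gclm* (1.59) led the genes higher in MG. Rods held at most 1.05 CPM of *Slc17a8*, so its fold rests on few UMIs. *Slc38a1* was at 128 and 112 CPM in the MG of these libraries and at 5.75 and 5.87 CPM in their rods. *Slc17a7*, the vesicular glutamate transporter VGLUT1 of photoreceptors (−4.10), *Slc1a7*, the photoreceptor and bipolar transporter EAAT5 (−3.99), and *Got1* (−3.17) led those lower in MG. Of the rest at 100 CPM or more, *Slc3a2* (1.21), *Slc7a8* (1.43) and *Nfe2l2* (0.67) were higher in MG and *Slc38a2* (−0.99) was lower.

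Along the ribosomal share, 1 of 22 list genes tested was higher in MG with at least 10% ribosomal protein UMIs and 10 were lower (median −1.09, beside −0.21 over all genes). Of all 13137 genes tested, 21.4% passed as higher at high ribosomal share and 26.2% as lower. The list gene that was higher was *Gclm* (log2 fold change 0.99). The largest falls were for *Slc1a1*, the glutamate transporter EAAC1 (−2.33), and *Slc1a4* (−2.31). *Slc1a1* ran from 0.259 to 57.8 CPM over the MG of the 4 libraries, so the lowest library adds little to its fall. Of the others at 100 CPM or more, *Slc7a8* (−1.90), *Slc38a2* (−1.79), *Slc38a1* (−1.46) and *Slc3a2* (−1.06) were lower and *Nfe2l2* (0.23) was not called.

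Genes with the most similar pattern were ranked for each of the 6 by Pearson's r of log2(CPM + 1) over the 15 sums of a class in a library, among 7318 genes. The sums share libraries and cover few classes, so r is a description. *Glul* was most like *Rhod* (0.98), *Gstt3* (0.98) and *Dcdc2a* (0.98), and *Slc1a3* most like *Fstl1* (0.97), *Sbspon* (0.97) and *Folr1* (0.97). *Slc38a3* was the second most similar gene to *Slc1a2* (0.97, after *Prkd1* at 0.97 and before *Xrcc6* at 0.96), and *Slc1a2* was likewise the second for *Slc38a3* (after *Nectin3* at 0.97 and before *Prkd1* at 0.96).

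The nearest genes to *Glud1* were *Rpl7l1* (0.93), *Kdelr1* (0.92) and *Irf2bp2* (0.92), and the nearest to *Slc7a11* were *Cdc42se1* (0.97), *Id2* (0.96) and *Prkcd* (0.96). Among the 6 genes themselves, *Glul* with *Slc1a3* had an r of 0.90, *Slc1a2* with *Slc1a3* 0.08 and *Slc1a2* with *Slc7a11* −0.64.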

How the data were processed

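Tissue was dissociated with papain, sorted for tdTomato and run on 10x Chromium Single Cell 3' v3.1. The authors aligned reads to GRCm39 with Cell Ranger (8.0.0 per the labels, while the headers of 2 libraries give 9.0.1) and deposited UMI counts per gene and barcode, not normalized, for barcodes of at least 500 UMIs. Intronic reads are counted by default in these versions, and the setting used is not given in the sources used here. The 4 libraries used held 13134827 to 50938304 UMIs, and MG sums 7439083 to 18890796. The tdTomato entry of 3 libraries was left out of totals.

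Beyond the limits for cells and MG given above, a cell of another class needed its marker share (at least 0.5% for microglia and macrophages and for rods, 0.25% for cones and bipolar cells, 0.1% for amacrine cells), at least 2 markers and 3 marker UMIs. These limits were chosen after the shares had been seen. Counts were summed per class and library (at least 20 cells), passed through filterByExpr and TMM scaling, and entered edgeR 4.0.16 in R 4.3.3 (quasi-likelihood test, Benjamini-Hochberg over all genes tested, 0.05). The standard error is the size of the log2 fold change divided by the square root of F. DESeq2 1.42.0 was an alternative. The edgeR step was tested on simulated data with 200 changed genes. Sums and shares used Python 3.11.15, numpy 2.4.6, pandas 2.3.3 and scipy 1.17.1. Replicate numbers are shared between groups, but nothing in the labels says that they mark a shared animal, litter or day, and 2 pairs cannot show it.

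The 6 genes, the list of 30 and the markers were chosen with earlier results of these data known. Named in each comparison were the 6 genes and, of the list, the 3 largest rises and 3 largest falls that passed and genes of at least 100 CPM in MG, apart from 1 list gene that is counted but not reported here by name. For each of the 6 genes the 3 most similar genes with a mean of at least 20 CPM in MG were named. Alternatives changed normalization, filter, tool, cell limits, thinning, version, block and each library. UMIs are independent molecules only up to capture, so intervals and limits cover counting error only.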

Additional observations from a re-analysis of the deposited data

Results flagged for a closer look

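*Glul* RNA was also counted outside the cells compared. In barcodes that failed the limits on UMIs or mitochondrial share its level was 3885 and 4800 CPM with *mKate2* AAV (replicates 1 and 2) and 3085 and 4871 CPM with *Yap5SA* AAV (replicates 1 and 3), beside 3494 to 7441 CPM in MG of the 4 libraries. In kept cells of no class it was 3341 and 514.9 CPM with *mKate2* AAV and 1434 and 1778 CPM with *Yap5SA* AAV. All 8 values were above the limit that a count of 0 allows, and in each set the 4 libraries of both groups had it. The cells of no class numbered 256, 595, 229 and 226 in the same order of libraries.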

How the results depend on the processing

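No gene passed between the AAVs in MG under any alternative run, of normalization, filter, tool, cells, version, block or library. The sign of single genes was not stable there. With each library left out in turn, log2 fold changes ran from −0.71 to 0.41 for *Glul*, −0.25 to 0.16 for *Slc1a3*, −0.56 to 0.42 for *Slc1a2*, −0.25 to 0.033 for *Slc38a3*, −0.69 to 0.18 for *Glud1* and −0.20 to 0.35 for *Slc7a11*. In cells with at least 3000 UMIs *Glul* stood at 0.0046 and *Slc7a11* at −0.024. *Slc1a3* was at 0.027 after thinning and at 0.12 in MG with at least 5% ribosomal protein UMIs, where *Slc38a3* was at 0.24. Without thinning the group difference in share of MG with a UMI changed sign to 0.955 percentage points for *Glul* and 0.457 for *Slc1a2*. With the replicate number as a block over 5 libraries 0 genes passed (865 at an unadjusted p under 0.05), and *Glul* was at −0.74. That fit enters *Yap5SA* AAV replicates 1 and 2, which hold the same cells, as separate samples, and replicate 3 stands alone in its block, so the 865 and −0.74 rest on 1 distinct *Yap5SA* AAV library and cannot be set beside the values from 4 libraries. The numbers give no pairing from the design.

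All 6 genes kept their direction and side of the threshold in every alternative run of MG against microglia and macrophages, where 6189 to 6603 genes passed with each library left out. Against rods, *Slc1a2* was at −0.0041 under the study's own limits per cell on counts, genes and mitochondrial share. That run took in 3 libraries in place of 2, so cells and libraries changed together. Leaving out a library could not be run because 1 library with rods remained. The interaction of *Slc1a2* was −0.10 with DESeq2. In the ribosomal share comparison 2493 genes passed in cells of 2000 to 8000 UMIs (6202 tested), and 4818 to 6031 with each library left out. Taking the mean over cells moved 10 of 30 levels by more than the spread between libraries, and put *Slc7a11* higher in MG than in microglia and macrophages in 2 of 4 libraries. The MG levels of *Slc1a3*, *Slc38a3* and *Slc7a11* were among those moved. For *Slc1a3* the means over MG were 13.1 and 6.47 UMIs per 10000 with *mKate2* AAV and 11.7 and 8.09 with *Yap5SA* AAV. Its summed counts gave 1515, 978, 1311 and 1204 CPM in the same order. *Slc7a11* rests on 122 to 337 UMIs a library in MG, and each AAV group on 2 libraries.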
